A study of Mus musculus with 2 samples.

Results

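The genes described here encode the platelet-derived growth factors (PDGFs) and their receptors, measured in ureters of embryonic mice (stage E14.5). They were all non-control array probes whose gene name in the scanner files was Pdgfa, Pdgfb, Pdgfc, Pdgfd, Pdgfra, Pdgfrb or Pdgfrl. This gave 7 genes of 31870 gene names, with 9 probes of 39429 and 18 spots per array of 43020. The study hybridised 2 two-colour arrays. Each array set RNA of Smad4cKO ureters (Tbx18(cre/+);Smad4(fl/fl)) against RNA of control ureters (Tbx18(+/+);Smad4(fl/+)), all of the NMRI strain. Smad4, the partner shared by the SMADs of BMP and TGFB signalling, is removed from the ureteric mesenchyme by a Cre recombinase expressed from Tbx18. Array 1 held a female pair with Smad4cKO in green, and array 2 a male pair with Smad4cKO in red, so sex and dye changed together. The controls also carried 1 floxed Smad4 allele, and they lacked the Cre allele of Tbx18, whose effect cannot be told apart from that of Smad4 loss. The number of embryos behind each RNA is not given in the labels. The p-values measure only the spread between these 2 arrays, which is mostly pooled over genes.

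PDGF signalling links epithelia, endothelium and mesenchyme. PDGF-A and PDGF-B are released in active form, while PDGF-C and PDGF-D carry a CUB domain that a protease has to remove first. PDGFRA, the receptor tyrosine kinase of many fibroblasts and mesenchymal progenitors, binds PDGF-A, PDGF-B and PDGF-C, and PDGFRB, the receptor of pericytes and vascular smooth muscle, binds PDGF-B and PDGF-D. Pdgfrl encodes a secreted protein that resembles the outer part of these receptors and has no kinase. In organs lined by epithelium, PDGF-A typically comes from the epithelium and its receptor lies in the mesenchyme beneath.

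The probes are shown because each ratio below rests on 1 oligonucleotide, apart from Pdgfa and Pdgfb with 2 each. All were 60 bases long, and positions (build mm9) come from the scanner files, which pair each probe with a transcript and do not say which exon it lies in. The Pdgfd probe, at chr9:6376926-6376985 on the plus strand, is given whole. Of the other probes the first 30 bases are given, for Pdgfra at chr5:75593888-75593947 (plus strand), and for Pdgfc at chr3:81017572-81017631 (plus strand). The Pdgfa probes lay at chr5:139452934-139452993 for the brighter one, which stands for the gene, and chr5:139452925-139452984 for the other (both minus strand). Capitals mark the 9 bases of the brighter Pdgfa probe that the other lacks. All are written 5′ to 3′.
Pdgfd: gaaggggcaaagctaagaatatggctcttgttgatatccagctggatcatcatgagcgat
Pdgfra: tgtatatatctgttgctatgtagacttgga
Pdgfc: aaatatggagccattgctaacctacccctt
Pdgfa, brighter probe: ACTGTAGCActcagagagacagtgagaaag
Pdgfa, other probe: ctcagagagacagtgagaaagcttccttgt
The Pdgfa probes share 51 of their 60 bases and are close to a repeat measurement of 1 site. The 2 Pdgfb probes lay 1062 bases apart, at chr15:79826376-79826435 for the one that stands for the gene and chr15:79827438-79827497 for the other (minus strand). The Pdgfrl probe lay at chr8:42075859-42075918 (plus strand). The longest run of bases that probes of different PDGF genes had in common, on either strand, was 8.

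The loci at which the genotypes differ were examined first. Smad4 had normalized signals of 21018 and 27556 in the channels labelled Smad4cKO of arrays 1 and 2, against 33992 and 30350 in those labelled control. Its log2 ratio was -0.69 on array 1 and -0.14 on array 2, and a second Smad4 probe gave -0.31 and -0.49. The deleted part of Smad4 is not stated, so it is not known whether either probe lies inside it or checks the deletion. Tbx18 gave 0.07 and 0.81. In every ratio the channel labelled Smad4cKO is on top, as the dye labels give it. The authors' deposited table runs the other way under titles that name Smad4cKO first. On each array its log2 values correlated at -0.96 with ratios of labelled Smad4cKO over control from Feature Extraction's processed signals. That correlation covered probes with 1 spot and a deposited value other than 1. Read as titled, the deposited table exchanges brighter and dimmer throughout, and the dye labels are followed here. Whether the dye labels or the titled table have the right direction was not tested. Every direction in this report therefore rests on the dye labels. Between 68.3% and 70.3% of spots were well above background in the 4 channels, and 0 spots were saturated. All 7 PDGF genes were well above background in all 4 channels.

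None of the 7 genes changed by either call rule. Limma (adjusted p under 0.05 over 21238 genes) called 0 of them, and across all genes it called 0 brighter and 1 dimmer, 0.00471% in either direction. A ratio of 1.5-fold or more with 1 sign on both arrays was reached by 0 of the 7, against 1.01% of all genes (104 brighter and 111 dimmer). Another 266 genes, or 1.25%, passed 1.5-fold with opposite signs, and with median centring in place of loess these were 1440. At an unadjusted limma p under 0.05 there was 1 PDGF gene brighter (Pdgfd) and 1 dimmer (Pdgfc), against 2.14% of all genes brighter, 2.97% dimmer and 5.11% in either direction. On both arrays 3 PDGF genes had ratios above 0 and 2 below, while 2 changed sign. Of all genes, 39.7% had 1 sign on both arrays and 60.3% opposite signs. The median log2 ratio of the 7 was -0.05, and that of all tested genes was 0.0047. The normalized signals of the labelled groups did not overlap for 4 of the 7 genes, 2 higher and 2 lower in the channels labelled Smad4cKO, beside 14.2% of all genes higher, 14.1% lower and 28.3% in either direction. The order of signals on different arrays rests on the scaling between arrays.

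**Figure D1:**
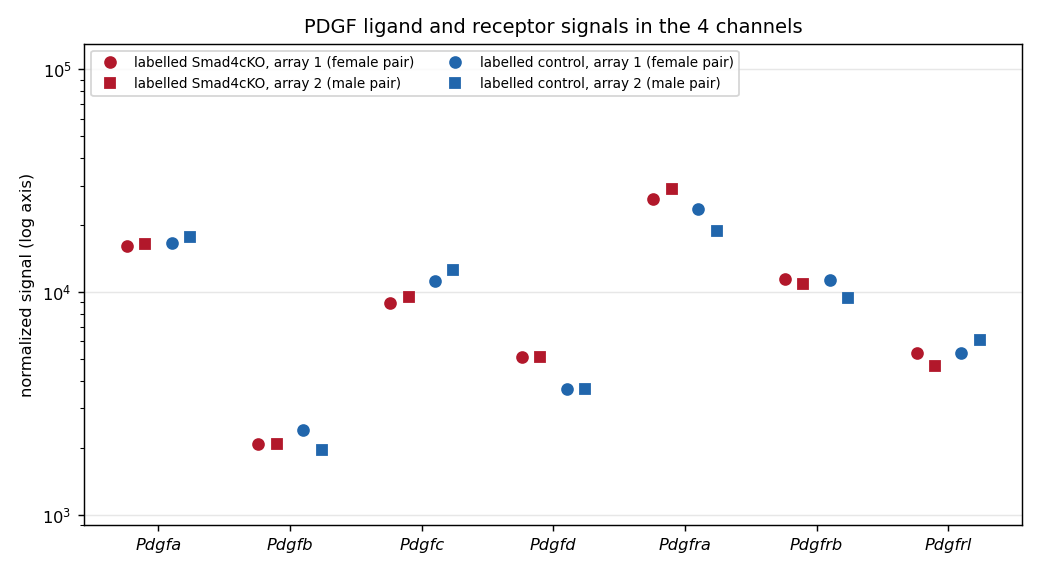
Normalized signal (log axis, after loess within and Aquantile scaling between arrays) of each PDGF gene in the channels labelled Smad4cKO (red) and control (blue) of array 1 (circles) and array 2 (squares), from 1 probe per gene. Signals of different genes come from different probes and are not comparable. Pdgfd lies higher in both channels labelled Smad4cKO, at 5126 and 5115 against 3679 and 3657.

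Of the ligands, Pdgfd and Pdgfc, which encode the CUB-domain PDGFs, had ratios in opposite directions, each of 1 sign on both arrays. Pdgfd had normalized signals of 5126 and 5115 in the channels labelled Smad4cKO of arrays 1 and 2, against 3679 and 3657 in those labelled control. Both signals of the first group were above both of the second. The log2 ratio was 0.48 on each array, a mean of 0.48 ± 0.13 (limma SE, n = 2 arrays) or 1.40-fold, with a 95% interval from 0.16 to 0.80. It missed limma's threshold (adjusted p = 0.50). Of all tested genes, 0.720% lay at least this far above 0 on both arrays. The difference between the arrays was 0.0054, and 98.5% of genes differed by more. This closeness depended on the scaling, since median centring gave 0.35 and 0.62. The authors' deposited table gives Pdgfd signed folds of -1.45 and -1.39, in that table's inverse direction.

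Pdgfc had normalized signals of 8962 and 9481 in the channels labelled Smad4cKO, against 11152 and 12523 in those labelled control. Both signals of the first group were below both of the second. The log2 ratio was -0.32 on array 1 and -0.40 on array 2, a mean of -0.36 ± 0.13 (limma SE, n = 2 arrays) or 1.28-fold dimmer, with a 95% interval from -0.68 to -0.04. It too missed the threshold (limma adjusted p = 0.830). Of all tested genes, 2.03% lay at least this far below 0 on both arrays. The authors' deposited table gives Pdgfc signed folds of 1.25 and 1.30.

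The other ligands had ratios near 0. Pdgfa had normalized signals of 16061 and 16435 in the channels labelled Smad4cKO, against 16644 and 17604 in those labelled control, which do not overlap but lie close together. Its log2 ratios of -0.05 and -0.10 (mean -0.08 ± 0.13, limma SE, n = 2, adjusted p = 1.00) left a 95% interval from -0.40 to 0.25. The overlapping second probe gave -0.07 and -0.0084. Pdgfb, the ligand by which endothelium recruits pericytes, had normalized signals of 2082 and 2085 in the channels labelled Smad4cKO, against 2389 and 1945 in those labelled control. The groups overlapped, and the log2 ratio changed sign, with -0.20 on array 1 and 0.10 on array 2 (mean -0.05 ± 0.14, limma SE, n = 2, adjusted p = 1.00). The second Pdgfb probe did the same, with -0.13 and 0.14. For neither gene does a missed threshold show equal expression, since the interval of Pdgfb ran from -0.40 to 0.31.

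**Figure D2:**
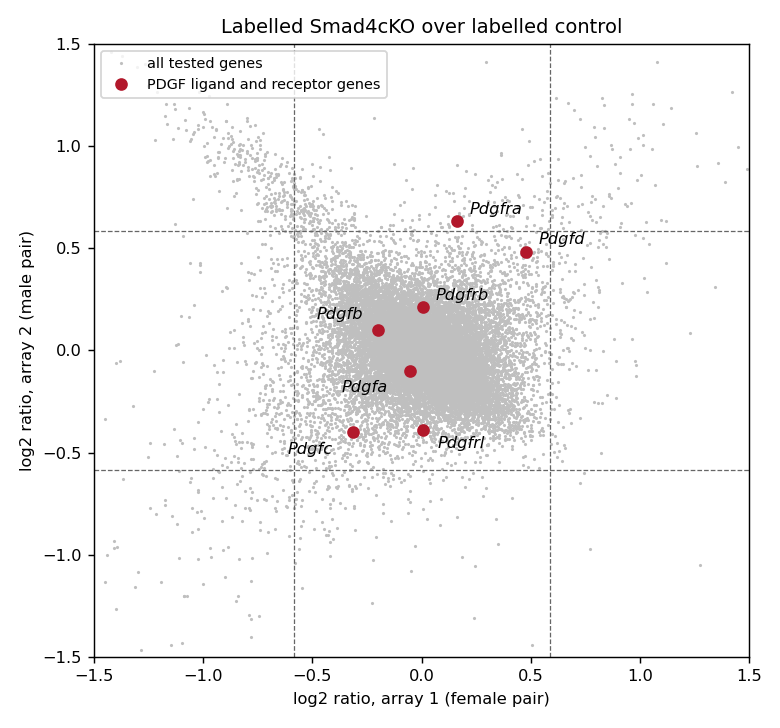
Log2 ratio of labelled Smad4cKO over labelled control on array 1 (x axis) and array 2 (y axis) for all 21238 tested genes (grey, 39 of them outside the axes) and the 7 PDGF genes (red), with dashed lines at 1.5-fold. Pdgfd lies short of the dashed lines at 0.48 on both arrays, and Pdgfra passes the line on array 2 only.

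Among the receptors, Pdgfra had the largest mean ratio, and its size depended on the array. Pdgfra had normalized signals of 26284 and 29087 in the channels labelled Smad4cKO, against 23501 and 18749 in those labelled control. Both signals of the first group were above both of the second. The log2 ratio was 0.16 on array 1 and 0.63 on array 2, or 1.12-fold and 1.55-fold. The mean was 0.40 ± 0.16 (limma SE, n = 2, adjusted p = 0.985), with a 95% interval from -0.0019 to 0.80. The probe was printed as 10 spots on each array, so the repeat error within an array is known for this gene. The spots gave 0.16 ± 0.04 on array 1 (SD over 10 spots, range 0.12 to 0.24) and 0.63 ± 0.03 on array 2 (range 0.60 to 0.68). The gap between the arrays was therefore larger than the spread of spots, which are repeats of 1 hybridisation and not samples. Over the 399 probes printed in this way the median spot SD was 0.05 on each array.

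The array gap of Pdgfra, 0.47 higher on array 2, was exceeded by 15.7% of all genes. Genes of like brightness (the ninth of 10 equal bins by mean signal) had a median difference of -0.14 between arrays 2 and 1, the other way, and the brightest bin had 0.20. Whether dye, sex or the pairs of RNA set this gap cannot be told apart. With median centring in place of loess, the log2 ratio of Pdgfra was -0.26 on array 1 and 1.05 on array 2, while its mean stayed at 0.40.

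**Figure D3:**
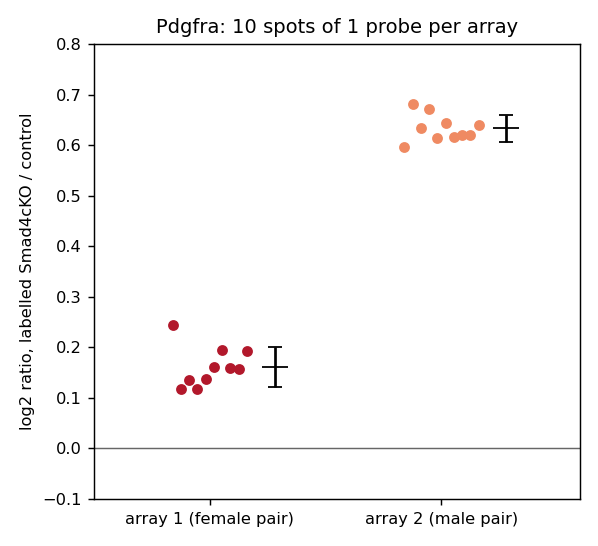
Log2 ratio of labelled Smad4cKO over labelled control for each of the 10 spots of the Pdgfra probe on array 1 and array 2, with the mean and SD over spots in black. The spots of array 1 lie between 0.12 and 0.24 and those of array 2 between 0.60 and 0.68, so the arrays do not overlap.

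The other receptor genes had mean ratios closer to 0. The Pdgfrb probe lay at chr18:61244606-61244665 (plus strand). Pdgfrb had normalized signals of 11438 and 10916 in the channels labelled Smad4cKO, against 11379 and 9437 in those labelled control. The groups overlapped, with log2 ratios of 0.0075 and 0.21 (mean 0.11 ± 0.14, limma SE, n = 2, adjusted p = 1.00) and a 95% interval from -0.23 to 0.44. Pdgfrl had normalized signals of 5339 and 4632 in the channels labelled Smad4cKO, against 5316 and 6067 in those labelled control. These overlapped as well, with log2 ratios of 0.0063 on array 1 and -0.39 on array 2 (mean -0.19 ± 0.15, limma SE, n = 2, adjusted p = 1.00).

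The sign of a ratio on single arrays depended on the processing for 4 of the 7 genes (Pdgfa, Pdgfra, Pdgfrb and Pdgfrl). It did not for Pdgfc and Pdgfd, which kept 1 sign on both arrays under every setting run. Pdgfb also kept its signs, which were opposite on the arrays (-0.30 and 0.21 with median centring). From Feature Extraction's processed signals, Pdgfrb gave -0.05 and 0.29 and Pdgfrl -0.04 and -0.38. With median centring, Pdgfa gave -0.35 and 0.23 and Pdgfrb -0.21 and 0.43. Pdgfd gave 0.35 and 0.62 with median centring and 0.53 and 0.46 from processed signals, and Pdgfc gave -0.52 and -0.17 with median centring and -0.32 and -0.39 from processed signals.

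**Figure D4:**
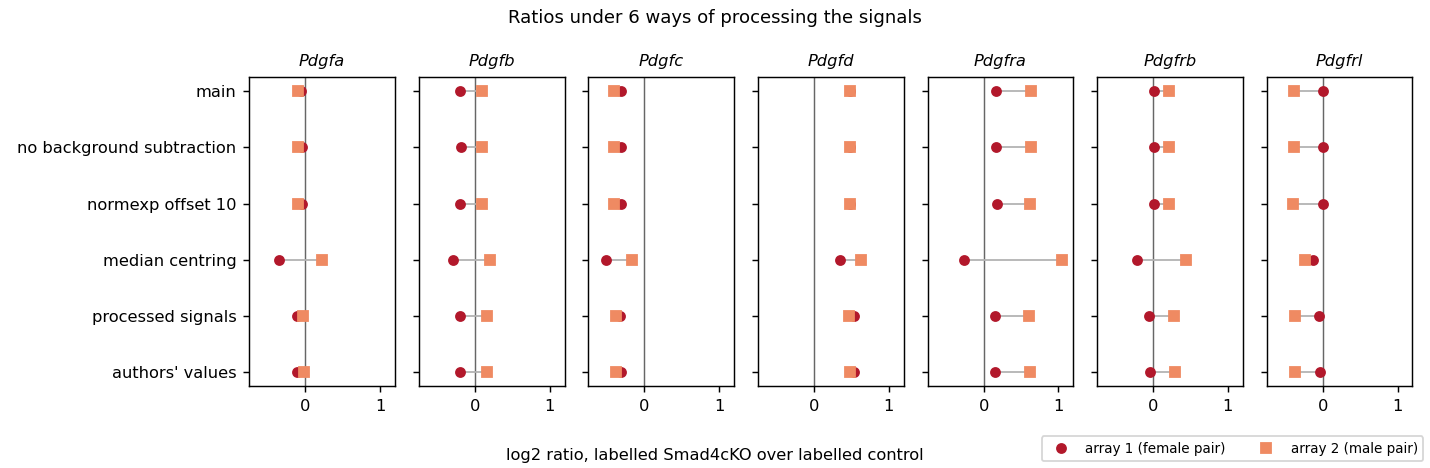
Log2 ratio of each PDGF gene on array 1 (circles) and array 2 (squares), joined by a line, under the main processing (top row) and 5 other ways of processing the signals. Pdgfc stays below 0 and Pdgfd above 0 on both arrays in all 6, and with median centring Pdgfra spans -0.26 to 1.05.

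The genes that act with the PDGFs were described from fixed lists. Of 10 genes for activation, binding and co-receptors, 0 passed limma or the 1.5-fold rule in either direction, with 2 above and 4 below 0 on both arrays and a median log2 ratio of 0.05. The ratios of Plat, which encodes the plasminogen activator that cleaves PDGF-C, were -0.41 on array 1 and -0.05 on array 2. St14, for matriptase, which can cleave PDGF-D, gave 0.25 and 0.08. The proprotein convertase gene Pcsk5 gave -0.26 and -0.41, and its relative Pcsk7 0.13 and 0.11. Of 36 genes of signalling next to the receptors, 0 passed either rule, 12 were above and 3 below 0 on both arrays, and the median was 0.01. By the smaller of their ratios, the genes of 1 sign farthest from 0 there were Cblb, a ubiquitin ligase for active receptors (0.26 and 0.19), Stat5a, for a transcription factor (0.18 and 0.52), the adaptor gene Gab1 (-0.21 and -0.18) and Mapk3, for the kinase ERK1 (0.16 and 0.19).

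Genes that growth factors induce in many cells also gave 0 calls by either rule among 18 tested of 21. The list's median log2 ratio was -0.43 (array 1) and 0.25 (array 2), and 12 of the 18 changed sign between arrays. Myc gave 0.25 and 0.18, Spry2, for an inhibitor of receptor kinase signalling, gave 0.06 and 0.32, the chemokine gene Ccl7 gave -0.22 and -0.13, and Jun gave -0.95 and -0.07. The structurally related VEGF genes and class III receptor genes had 0 calls among 15, with a median of 0.07. Kit, for the receptor of stem cell factor, gave -0.12 and -0.31. Flt3l, the ligand gene of FLT3, gave 0.44 and 0.23, and the VEGF receptor genes Flt1 (0.08 and 0.22) and Flt4 (0.13 and 0.15) lay near 0.

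Markers of the cells that make or receive PDGFs were set beside these values, and their part in the PDGF ratios was not tested. In bulk RNA, fewer cells of a type and less RNA per cell cannot be told apart. By the 1.5-fold rule 0.49% of all tested genes were brighter and 0.523% dimmer where labelled Smad4cKO. The share of all tested genes with 1 sign on both arrays was 39.7%. All 15 urothelial and all 10 ureteric mesenchyme markers were tested, and 0 of either passed a call rule. Among them the epithelial cadherin gene Cdh1 gave 0.24 and 0.28, Upk3a, for a urothelial plaque protein, gave -0.17 and -0.45, and 5 of the 15 urothelial markers were above and 1 below 0 on both arrays. Of the mesenchyme markers 3 were above and 2 below 0 on both arrays, and 5 changed sign. The signalling ligand gene Bmp4 gave -1.04 and -0.43 and the transcription factor gene Tshz3 -0.74 and -0.08, while Tcf21 gave 0.92 and 0.33 and Sox9 0.11 and 0.13, both for transcription factors. The summed signal of the urothelial list was 259829 and 232835 in the channels labelled Smad4cKO, against 201470 and 244054 in those labelled control, and that of the mesenchyme list was 219215 and 255748, against 236831 and 246030. Here and below, such sums are weighted to the brightest probes of a list and do not measure cell numbers. Of 10 smooth muscle markers, 7 passed the 1.5-fold rule, all brighter where labelled Smad4cKO. They included the smooth muscle myosin gene Myh11 (2.08 and 2.65), the calponin gene Cnn1 (1.65 and 2.17) and the actin genes Actg2 (1.42 and 2.08) and Acta2 (1.03 and 2.14). Of the 10, 9 were above 0 on both arrays and 1 below, Synpo2, named after its values were seen (-0.91 and -0.05). The summed signal of the 10 was 78245 and 99839 in the channels labelled Smad4cKO, against 50805 and 47134 in those labelled control.

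Of 9 pericyte markers, cells in which Pdgfrb is a defining gene, 0 passed a call rule and 3 were below 0 on both arrays. These were the potassium channel gene Kcnj8 (-0.53 and -0.57), Rgs5 (-0.43 and -0.67) and Abcc9 (-0.13 and -0.26), and the other 6 changed sign. Under limma with an intensity trend and robust estimation, Kcnj8 (adjusted p = 0.00465) and Rgs5 (adjusted p = 0.00857) passed the threshold. That fit called 705 of all 21238 genes, against 1 in the main setting. The pericyte list's summed signal was 51352 and 60027 in the channels labelled Smad4cKO and 59097 and 57220 in those labelled control. Of 10 fibroblast markers, cells that carry Pdgfra, 2 were dimmer by the 1.5-fold rule. These were the matrix gene Dpt (-1.64 and -0.85) and the retinoic acid-synthesising Aldh1a2 (-0.75 and -1.30). Both also passed limma with the intensity trend and robust estimation (adjusted p = 2.05e-09 and 0.00136). Of the 10 markers, 1 was above and 3 below 0 on both arrays, and 6 changed sign. The list's summed signal was 416054 and 709885 in the channels labelled Smad4cKO, against 715396 and 407241 in those labelled control, so it was higher in the channel read in red on each array. For Pdgfb, the 11 tested endothelial markers of 12 (Erg was not well above background) had 0 calls and a summed signal of 108875 and 103376 in the channels labelled Smad4cKO, against 93914 and 96419 in those labelled control. Of these markers 6 were above and 1 below 0 on both arrays, and 4 changed sign, with 0.63 and 0.48 for Ramp2 and -0.23 and -0.22 for Egfl7. The megakaryocyte and platelet list had 0 calls among 8 tested of 9 (Gp1ba was not well above background), with 2 above and 2 below 0 on both arrays and 4 that changed sign. The platelet factor gene Pf4 gave 0.33 and 0.32, and the platelet glycoprotein gene Gp9 -0.13 and -0.12. That list's summed signal was 8431 and 8006 in the channels labelled Smad4cKO and 7417 and 6792 in those labelled control.

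**Figure D5:**
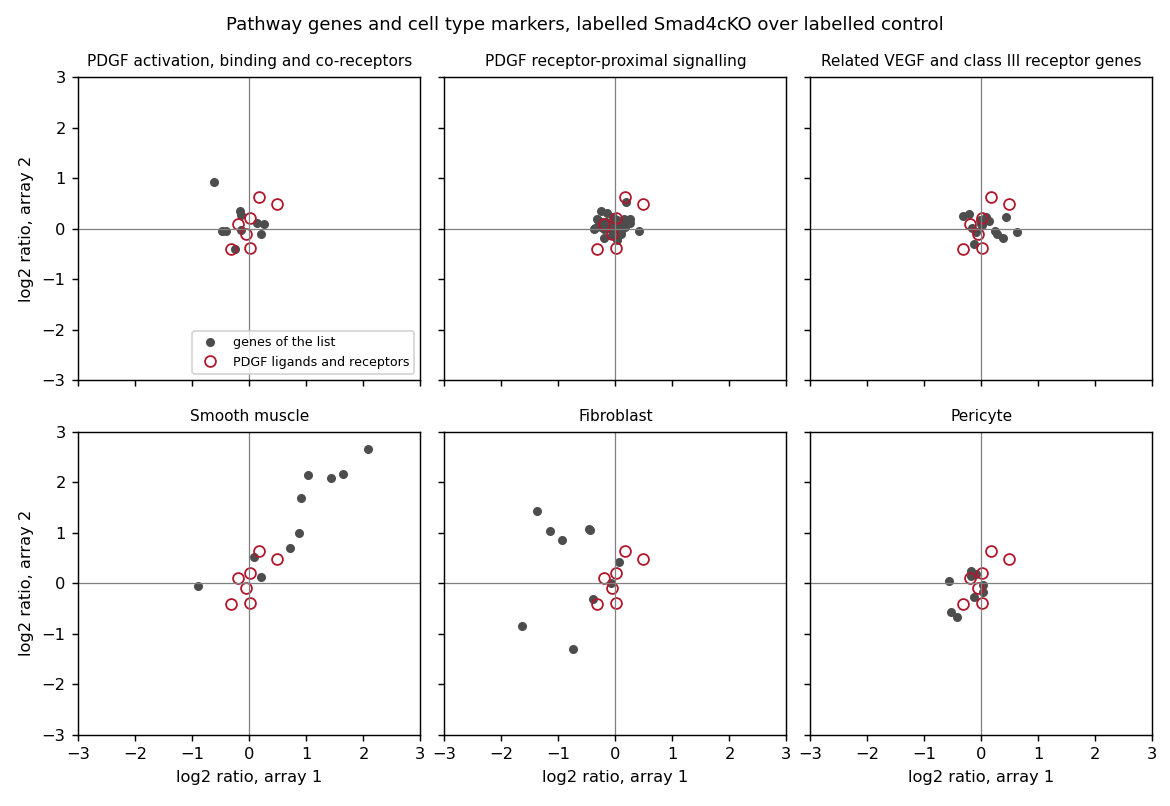
Log2 ratios on array 1 (x axis) and array 2 (y axis) of 3 pathway lists (top) and 3 marker lists (bottom) as filled points, with the 7 PDGF genes repeated as open red circles. Of the pathway genes shown, Sparc (-0.61 and 0.92) lies farthest from the rest, 7 of the 10 smooth muscle markers pass 1.5-fold on both arrays, and several fibroblast markers have opposite signs on the arrays.

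Pdgfd had the largest ratio of 1 sign on both arrays among the 7. The 5 genes with a symbol whose pair of log2 ratios lay nearest to its own, by Euclidean distance over the 2 arrays, were Fgf10, which encodes a mesenchymal growth factor (0.48 and 0.47, distance 0.01), Abca9 (0.47 and 0.51), Myo1e (0.49 and 0.46), Agap2 (0.45 and 0.47) and Ndnf (0.51 and 0.48). The likeness rests on 2 arrays only.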

How the data were processed

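The scanner files hold, per the file headers, intensity values of both channels at every spot: mean signal, local background, and a processed signal already background-subtracted and dye-normalized. Per the submitters' processing notes the software was Agilent's Feature Extraction, version 10.7.3.1. Arrays were hybridised with 200 ng of RNA per channel. The authors' deposited value table was read as a score, a signed fold between channels with no values between -1 and 1. How that table was computed is not given in the sources.

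Mean signals were corrected with normexp (offset 50) and normalized by loess within each array, with the 1377 control spots at weight 0 (limma 3.58.1, statmod 1.5.0, R 4.3.3). Outlier spots (237 and 221) were left out. Testing needed a signal well above background for 1 labelled group on each of the arrays, which 26670 of 39429 probes had, and each gene was represented by its brightest such probe. Limma (lmFit, eBayes, Benjamini-Hochberg over 21238 genes) tested ratios against 0 with 1 residual and 4.89 prior degrees of freedom, so its SE rests mostly on the spread pooled over genes. The script was tested on simulated data. Accessions of 26412 probes were matched to RefSeq symbols (GRCm38.p6). Channel signals are those after loess and Aquantile.

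Named genes were the 7 PDGF genes, Smad4 and Tbx18, up to 4 genes per list with 1 sign on both arrays and the largest smaller ratio, and the 5 genes nearest to the leading PDGF gene. The genes, lists and rules were chosen with earlier results of these data known. Alternatives are given in the closing section. The markers of kidney stroma and nephron progenitors (1 list), of macrophages and of neurons and glia are not discussed further. By the 1.5-fold rule 0 of them were brighter. Dimmer were 2 of 8 (Gdnf and Wt1), 0 of 8 tested and 4 of 10, in that order of lists.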

Additional observations from a re-analysis of the deposited data

Results flagged for a closer look

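The log2 ratio of Pdgfb was -0.20 on array 1 (female pair) and 0.10 on array 2 (male pair), opposite in sign, which was not tested as a difference between the pairs. The log2 ratio of Pdgfrl was 0.0063 on array 1 and -0.39 on array 2, also opposite in sign and not tested. This opposition rests on a value near 0 on array 1 and depends on the processing, since Pdgfrl was below 0 on both arrays with median centring (-0.13 and -0.24), from processed signals (-0.04 and -0.38) and from the authors' deposited values (-0.04 and -0.37). With 1 array for each sex and the dyes exchanged, sex, dye and array cannot be told apart, and 60.3% of all tested genes had opposite signs on the arrays.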

How the results depend on the processing

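Over the settings that used both arrays, the mean log2 ratio of each PDGF gene kept its sign, except that the second probe of Pdgfb gave 0.0058 (limma adjusted p = 1.00). With 1 array left out, Pdgfb and Pdgfrl also turned. The means of Pdgfd lay between 0.48 and 0.50, those of Pdgfc between -0.36 and -0.34 and those of Pdgfra between 0.38 and 0.40. Pdgfd (0.48) passed limma's threshold under robust empirical Bayes with an intensity trend (adjusted p = 0.0308), which called 1 PDGF gene and 705 genes in all; over its other settings its adjusted p was above the threshold and reached 1.00. Limma's count over all genes, 1 in the main setting, was 0 with median centring, 0 after averaging the probes of each gene, 0 when outlier spots stayed in, 4 with probes above background in both channels, 66 with normexp offset 10, 149 from the authors' deposited values and 303 from processed signals. Genes past 1.5-fold on both arrays numbered 215 in the main setting, 361 from the authors' values and 383 from processed signals, and 46 passed 2-fold. Those past 1.5-fold with opposite signs numbered 266 in the main setting, 1440 with median centring and 180 from processed signals. The cause was not tested. The robust fit with a trend also called other named genes, Kcnj8, Rgs5, Hand2 and the 4 named smooth muscle genes among them. Over all settings the other named genes gained a call in 39 of the values and turned in 0. Another 46 of their values, each with 1 array left out, kept their sign but moved in size. With 1 array left out, values have no test: the number of genes past 1.5-fold lay between 877 and 940, that of PDGF genes between 0 and 1 (Pdgfra on array 2), and the log2 ratio between 0.16 and 0.63 for Pdgfra, -0.39 and 0.0063 for Pdgfrl, and -0.20 and 0.10 for Pdgfb. Each ratio pairs the 2 channels of 1 array, so limma's test of the ratios against 0 already used this pairing. The number of arrays, 2, limits the precision.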
